A study of Drosophila melanogaster with 2 samples.

Results

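Binding of the zinc finger protein CG17802 was examined at 9 genes of the TOR (target of rapamycin) growth pathway, namely Rheb, Tor, raptor, rictor, Lst8, Tsc1, gig, S6k and Thor, out of 13968 protein-coding genes annotated on the main chromosome arms. The 9 genes are a fixed list of names, chosen by their place in the pathway with the deposited signal of a strong peak at Rheb already known, so their peak signals and ranks are a description and were not tested. A gene was counted as having a promoter peak when the summit of a peak lay within 500 bp of one of its annotated transcription start sites (TSSs). CG17802 (gene symbol Nnk) belongs to the ZAD family of insect zinc finger proteins. It was profiled by ChIP-seq, which sequences the DNA recovered with a protein, in whole embryos of Drosophila melanogaster of mixed sex aged 0 to 14 h. The line carries a transgene for CG17802 with GFP at its C terminus, and the sequence that drives the transgene is not given in the sources used here. There was 1 group of 2 biological replicates, both from that line, and no second condition. One text field of the labels calls the libraries an input control, whereas the antibody, the assay and the listed control experiment describe a ChIP of CG17802.

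The authors deposited 4 peak lists: 1 for each replicate, 1 for the replicates pooled, and a thresholded set. The thresholded set was derived with a test of reproducibility between replicates. The first 3 hold 30000 peaks each, background included, and the thresholded set holds the 3535 highest peaks of the pooled list. Of these, 3487 had a summit of both replicate lists within 500 bp of their own. By this measure a thresholded peak was not always matched in each replicate list, and overlap of intervals was not counted over the set. Each signal given below is the authors' own peak value, which orders the peaks of a list and whose scale is not stated. Signals of different lists are therefore given side by side, and a ratio between the replicate lists is read only by its place among the ratios of all thresholded peaks. Read depth is unknown. Since the material was whole embryos, a site bound in few cells and a site bound weakly in many cells cannot be told apart.

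TOR is a protein kinase that couples growth to nutrients, and it works in a pair of protein complexes. TORC1 contains raptor and Lst8, TORC2 contains rictor and Lst8. The small GTPase Rheb switches TORC1 on, and the complex of Tsc1 and gig (the fly Tsc2) switches Rheb off. Active TORC1 phosphorylates the kinase S6k and the translation inhibitor Thor, the fly 4E-BP, and so raises protein synthesis. The gene listed as Tor carries the symbol mTor in the annotation (FBgn0021796) and is not the receptor gene tor (torso).

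The stretches below are shown because 3 are from promoters with a peak of the thresholded set and 3 are from promoters without one. All are from the dm6 genome (plus strand, 5′ to 3′, RefSeq sequence), and all lie before the transcripts, outside annotated genes. Capitals mark matches, on either strand, to a fixed set of 7 promoter motifs. The first is the stretch chr3R:5568621-5568920 directly before the TSS of Rheb, with the summit of the peak at base 182. The second is chr2L:13004108-13004407, which starts at the base after the TSS of Vha68-1 and runs towards Tor, with the summit at base 116. The third is chr2L:3478334-3478433, directly before the first TSS of Thor. It lies within the interval of the Thor peak, but the summit is outside the printed stretch. The others are the gap between S6k and kri at chr3L:5810932-5810972, the gap between GatB and Tsc1 at chr3R:24130256-24130306, and the stretch before Lst8 at chrX:9605970-9606069, which is transcribed to the left. The S6k and Tsc1 gaps hold summits of the pooled list that are below the threshold, at base 36 in each.
Rheb: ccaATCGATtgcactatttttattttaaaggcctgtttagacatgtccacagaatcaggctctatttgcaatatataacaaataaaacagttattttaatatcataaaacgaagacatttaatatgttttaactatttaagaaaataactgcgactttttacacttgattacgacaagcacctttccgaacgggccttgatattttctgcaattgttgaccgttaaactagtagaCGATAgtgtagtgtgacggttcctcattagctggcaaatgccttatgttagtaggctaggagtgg
Tor: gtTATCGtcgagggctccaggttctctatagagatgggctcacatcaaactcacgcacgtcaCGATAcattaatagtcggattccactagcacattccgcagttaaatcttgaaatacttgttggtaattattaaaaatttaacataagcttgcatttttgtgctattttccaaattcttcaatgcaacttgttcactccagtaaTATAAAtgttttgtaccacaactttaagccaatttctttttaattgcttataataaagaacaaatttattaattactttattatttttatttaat
Thor: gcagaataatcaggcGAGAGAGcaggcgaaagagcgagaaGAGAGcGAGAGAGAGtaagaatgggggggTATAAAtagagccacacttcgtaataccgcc
S6k: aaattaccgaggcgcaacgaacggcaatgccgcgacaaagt
Tsc1: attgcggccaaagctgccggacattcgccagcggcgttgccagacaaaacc
Lst8: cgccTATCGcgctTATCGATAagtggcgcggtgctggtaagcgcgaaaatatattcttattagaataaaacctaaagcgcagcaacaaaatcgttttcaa

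Rheb (FBgn0041191, chr3R:5568921-5570491, plus strand) had by far the strongest peak of the 9 genes. Its peak (chr3R:5568219-5569170) had a signal of 14187.2 and ranked 7 in the thresholded set. In the replicate 1 list the signal was 3366.5 at rank 10 of 30000, and in the replicate 2 list it was 10823.9 at rank 5. Both replicates thus placed the Rheb promoter among their 10 highest peaks. The summits of the replicates lay 5 bp apart, and the summit of the thresholded peak lay 119 bp before the TSS of Rheb, in the gap between Rheb and CG2931. CG2931 is transcribed in the opposite direction from a TSS 306 bp away, and the summit lay 187 bp from it, so the peak cannot be assigned to Rheb alone. Over the 1917 thresholded promoter peaks the median width was 330 bp. Exactly that width was held by 64% of all thresholded peaks and 95.7% of pooled peaks. The median therefore says little about how far a typical peak extends. The Rheb peak was 952 bp wide and spanned both TSSs. Its signal was 67.1 times the median of those promoter peaks (211.6) and above that of 99.6% of them.

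Tor, the kinase itself (chr2L:13004480-13013197, plus strand), had a peak of intermediate rank. Its signal was 514.2 in the thresholded set (chr2L:13004105-13004340, rank 443), 128.1 in the replicate 1 list (rank 532) and 389.2 in the replicate 2 list (rank 434). Both replicates ranked it within their highest 2% of peaks, at 1.77 and 1.45%. The summit lay 257 bp before the TSS of Tor and 116 bp before that of Vha68-1, which encodes a catalytic-sector subunit of the vacuolar proton pump and is transcribed the other way from a TSS 373 bp from that of Tor. The nearest gene of this peak is therefore Vha68-1, and Tor had no promoter peak when a summit counted for the closest gene alone or when the promoter distance was 200 bp. The peak was narrow, 236 bp in the thresholded set and 70 bp in the replicate 1 list, and none of its intervals reached the TSS of Tor. Its signal was 2.43 times the median of thresholded promoter peaks and above that of 82.2% of them.

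Thor, the translation inhibitor held back by TORC1 (FBgn0261560, chr2L:3478434-3479612, plus strand), had a weak peak at its own TSSs. The signal was 150.7 in the thresholded set (chr2L:3478334-3478663, rank 2357), 56.58 in the replicate 1 list (rank 1654) and 92.55 in the replicate 2 list (rank 3027). The rank was thus higher in replicate 1 than in replicate 2, but the site was among the 3535 highest of each. Thor has a pair of TSSs 88 bp apart, and the summit lay between them, 23 bp before the second, in the 5′ UTR of the longer transcript. No other gene had a TSS within 500 bp of the summit, which makes it the only 1 of the 3 thresholded peaks at a promoter that is not shared. Its signal was 0.712 times the median of thresholded promoter peaks, and 28.4% of them were weaker.

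**Figure D1:**
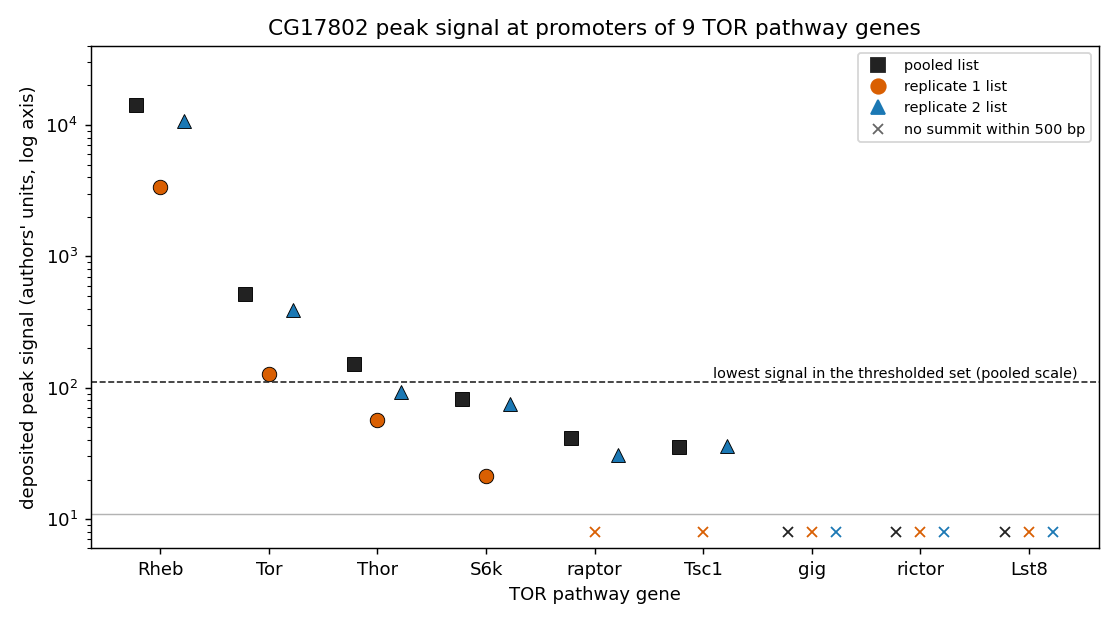
Deposited peak signal (log axis, authors' units) at the promoters of the 9 genes in the pooled list (squares), the replicate 1 list (circles) and the replicate 2 list (triangles), with crosses where no summit lay within 500 bp of a TSS. The dashed line is the lowest signal of the thresholded set, 109.8 on the scale of the pooled list: Rheb, Tor and Thor lie above it, S6k, raptor and Tsc1 below it, and gig, rictor and Lst8 have no value.

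S6k, the kinase phosphorylated by TORC1 (FBgn0283472, chr3L:5797549-5810931, minus strand), had the highest pooled promoter summit of the members outside the thresholded set. Its promoter summit had a signal of 82.15 in the pooled list (rank 5211), 21.13 in the replicate 1 list (rank 11490) and 75.75 in the replicate 2 list (rank 3983). The lowest signal of the thresholded set was 109.8, well above that of S6k, and Thor was the lowest member inside the set. The replicates placed the S6k summit 48 bp apart and at unlike ranks. The S6k TSS lies 42 bp from that of kri, which is transcribed the other way, and the pooled summit lay 36 bp from the S6k TSS and 6 bp from that of kri. S6k was the only member with a higher summit inside the gene than at its promoter in the pooled list, with a signal of 93.86 (rank 4373) among 6 summits beyond 500 bp, none of them in the thresholded set.

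Of the inhibitors of Rheb, neither had a thresholded peak. Tsc1 (FBgn0026317, chr3R:24130307-24134654, plus strand) had a promoter summit with a signal of 35.2 in the pooled list (rank 27431) and 36.02 in the replicate 2 list (rank 12716), and none in the replicate 1 list. The Tsc1 TSS lies 52 bp from that of GatB, a subunit of the mitochondrial glutamyl-tRNA amidotransferase. The gene gig (FBgn0005198, chr3L:20129181-20139010, plus strand) had no promoter summit in any list, and the nearest summit of the pooled list lay 5581 bp away.

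The complex subunits raptor, rictor and Lst8 were also without thresholded peaks. The TORC1 subunit raptor (FBgn0029840, chrX:6082634-6090201, minus strand) had a summit of low rank 205 bp before its TSS in the pooled list (signal 41.41, rank 18970), with one of 30.64 at rank 17978 in the replicate 2 list and none in the replicate 1 list. The raptor summit also lay within the gene Mipp2 and in an exon of the antisense RNA asRNA:CR44959. For rictor (FBgn0031006, chrX:19252111-19261240, minus strand) and Lst8 (FBgn0264691, chrX:9604154-9605969, minus strand) no list had a promoter summit. The nearest pooled summit lay 1303 bp from a TSS of rictor and 4953 bp from that of Lst8, and the nearest thresholded summits lay 28301 and 20487 bp away. Just outside the 500 bp limit, the replicate 2 list had a summit 637 bp from a TSS of rictor (signal 25.95, rank 25374), and the pooled list had a second summit 836 bp from raptor with a higher signal than the first (64.06, rank 7558). A pooled summit 5744 bp from Lst8 fell just short of the threshold, with a signal of 109.6 against the lowest thresholded signal of 109.8.

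**Figure D2:**
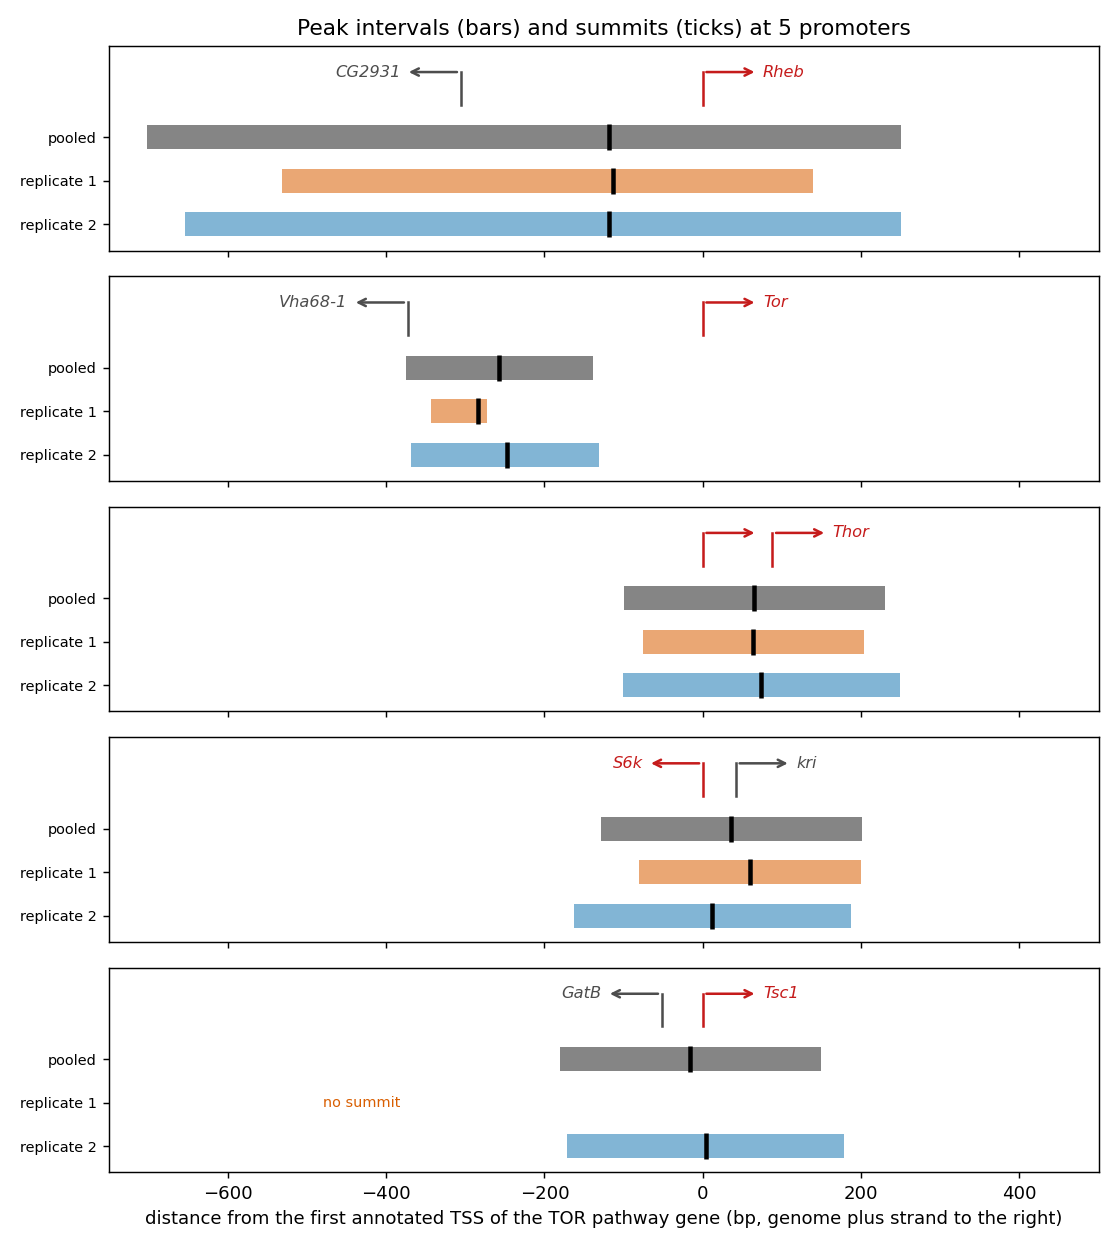
Peak intervals (bars) and summits (black ticks) in the pooled and replicate lists at 5 promoters, as distance in bp from the first TSS of the TOR pathway gene, with arrows for TSSs and their direction (member in red, neighbouring gene in grey). The Rheb peak spans both TSSs of a 306 bp gap, and the Tor peak lies on the side of Vha68-1. The Thor peak, with the commonest width of each list, covers both Thor TSSs. S6k and Tsc1, with gaps of 42 and 52 bp between TSSs, show summits outside the thresholded set, at ranks 5211 and 27431 in the pooled list.

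Counted over the 9 genes, 3 had a thresholded promoter summit (33.3%), against 16.8% of all protein-coding genes (2352 of 13968). The list was chosen with the Rheb peak known and holds few genes, so nothing is read from the difference. Any promoter summit of the pooled list was found at 6 of 9 members (66.7%), against 46.9% of protein-coding genes. The counts were 4 of 9 in the replicate 1 list (44.4%, against 45.1%) and 6 of 9 in the replicate 2 list (66.7%, against 47.2%). Among the 3535 highest peaks of each replicate list alone, the members with a summit were again Rheb, Tor and Thor, where the share of protein-coding genes was 16.4% in replicate 1 and 16.8% in replicate 2. No summit in any list was found for 3 of 9 members (33.3%), against 40.8% of protein-coding genes.

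Across the genome, genes that share a promoter were counted more often, which the counting rule itself favours. A summit counts for every gene with a TSS in range, so a peak at a neighbour's TSS can count too. With the nearest gene only, the share of all protein-coding genes was 12.3% in place of 16.8%, and no split by sharing was made. Of protein-coding genes with another gene's TSS within 500 bp of their own, 28.9% had a thresholded summit (1388 of 4805), and of the others 10.5% did (964 of 9163). Among the members, 5 shared their promoter in this sense and 2 of them had a thresholded peak, Rheb and Tor, while Tsc1, S6k and raptor did not. Of the 4 that did not share it, Thor had a peak and gig, rictor and Lst8 did not.

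The replicates differed in scale, and the 3 thresholded members were spread over the range of their ratio. Over the 3487 thresholded peaks with a summit of both replicate lists within 500 bp of their own, the signal in replicate 1 divided by that in replicate 2 had a median of 0.372 (quartiles 0.285 and 0.475). The ratio was 0.311 at Rheb, 0.329 at Tor and 0.611 at Thor. Rheb and Tor thus lay between the quartiles, and Thor lay above 91.6% of the peaks. S6k, outside the thresholded set, had a ratio of 0.279. With 2 replicates there is no spread against which these ratios could be tested.

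**Figure D3:**
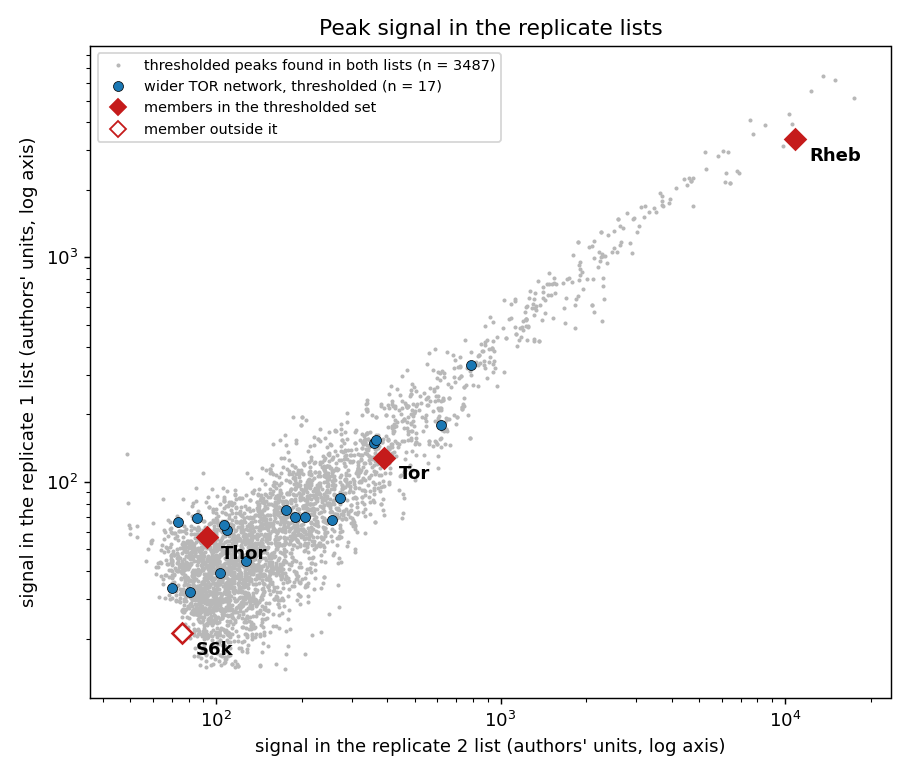
Signal in the replicate 1 list against signal in the replicate 2 list (both on log axes, authors' units) for 3487 thresholded peaks (grey), 17 peaks of the wider TOR network (blue) and the members found in both lists (red, open for S6k outside the thresholded set). Rheb lies near the upper end of the cloud, Tor above most of it, Thor in the dense lower part and S6k at the lower edge.

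The peaks closest to Rheb in strength were at promoters of genes of varied roles. By signal in the thresholded set, the 3 promoter peaks above it lay nearest to lncRNA:CR43130 (17832.8), to WASp, an activator of branched actin assembly (14618.4), and to fl(2)d, part of the RNA m6A methylation machinery (14437.7). The 3 below it lay nearest to lncRNA:CR44209 (12937.3), CG10465 (11596.7) and gw, a protein of miRNA silencing (11229.1). The summits at lncRNA:CR43130, fl(2)d and lncRNA:CR44209 also lay within 500 bp of the TSS of another gene. Those peaks cannot be assigned to the nearest gene alone. In replicate 1 these 6 ranked 3, 5, 7, 11, 6 and 9, and in replicate 2 they ranked 4, 7, 6, 8, 11 and 10, while Rheb ranked 10 and 5, and no peak of the 7 differed by more than 5 places between the replicates. At 952 bp, the Rheb peak was wider than 5 of these 6, which measured 611 to 727 bp, and narrower than that of CG10465 (1928 bp).

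No motif of the 7 was found at all 3 thresholded members and at none of the others. The motifs were searched on both strands within 100 bp of the summit, or of the TSS for members without a summit. For rictor, whose 2 TSSs lie 1397 bp apart, only the window at chrX:19261240 was searched. The BEAF-32 element CGATA was present once at each of Rheb, Tor and Thor, on the plus strand at Rheb and Tor and on the minus strand at Thor. It started at position 54 from the thresholded summit at Rheb, -53 at Tor and 55 at Thor. At Tor the summits of the replicates lay 37 bp apart, so the position there depends on the list. The element was also present at Tsc1, raptor and Lst8, with 5 matches at Lst8, which had no peak. It is a common sequence, found at 42% of thresholded promoter summits and 39.3% of all protein-coding TSSs in windows of the same length. The octamer TATCGATA, the DRE bound by the factor DREF, was found only at Lst8, which had no peak. It lies in 10.3% of thresholded promoter windows and 7.83% of all. Its core ATCGAT, which also lies within the octamer, was found at Lst8 and Tsc1, with a match before Rheb that lies outside the window, and in 20.8 and 18.9% of the same windows. The octamer also contains CGATA on both strands, so these matches overlap.

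The TATA box TATAAA was present at Thor, Tor and gig, in 33.9% of thresholded promoter windows and 29.2% of all TSS windows. At Thor it starts 31 bp before the first TSS, to the right of a run of GAGAG repeats that the printed stretch shows in capitals and that lies beyond the 100 bp window. At Tor it starts 167 bp before the TSS, and at gig it lies after the TSS. GAGAG, bound by the GAGA factor, was within the window at none of the 9 genes (18.8% of thresholded promoter windows, 22.5% of all). The Motif 1 octamer GGTCACAC (6.42 and 6.74%) and the E-box CACGTG, bound by Myc and Max (3.18 and 2.88%), were at none of the 9 either. The windows at Rheb and Tor were rich in A and T, with 33.8 and 34.3% G and C, and that at Thor had 45.8%. The median over thresholded promoter summits was 36.3% (quartiles 32.3 and 40.8%), so Rheb and Tor lay within the quartiles and Thor above them. In the windows of the 6 other members G and C made up 42.3 to 47.8%. Those of gig, rictor and Lst8 were centred on the TSS and not on a summit. No value over all TSS windows is given for G and C, so these groups are not compared.

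Beyond the 9 genes, 46 genes that act upstream or downstream of TOR were counted by role. Of these, 19 had a thresholded promoter summit (41.3%, against 16.8% of all protein-coding genes), a further 14 had only a summit of the pooled list below the threshold, and 13 had no pooled summit. No test was made of this share. The list was written with earlier results of these peaks known, so nothing is read from the difference. Part of the list has several TSSs, and genes with more TSSs were called more often in general: 13.1% of genes with 1 TSS, 24.3% with 2 and 34% with 3 or more. In the same classes the list had 9 of 29 (31%), 6 of 8 (75%) and 4 of 9 (44.4%) called. Of the 19 genes, 8 shared the peak with another gene's TSS, and 17 had a promoter summit in both replicate lists.

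**Figure D4:**
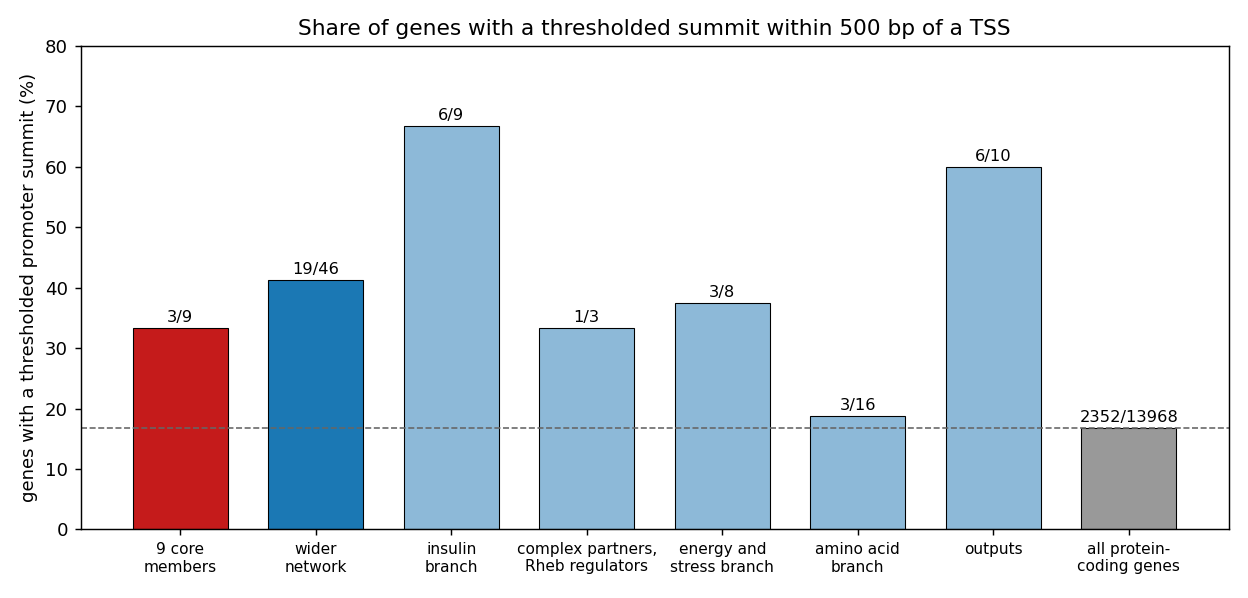
Percent of genes with a thresholded summit within 500 bp of a TSS for the 9 core members, the wider TOR network, its 5 branches and all protein-coding genes, with counts above the bars and a dashed line at 16.8%. The insulin branch (66.7%) and the outputs (60%) have the highest bars, and the amino acid branch (18.8%) is close to the line.

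The insulin branch, which activates TOR through the kinase Akt, had 6 of 9 genes called (66.7%, against 16.8% of all protein-coding genes). Akt had the strongest peak of the wider network, with its summit 1 bp from a TSS, a signal of 1134.8 (rank 195) and ranks of 197 in replicate 1 and 194 in replicate 2. The same peak lay within 500 bp of a TSS of Mhcl, a myosin heavy chain-like gene. Pi3K21B, the adaptor of PI3 kinase, followed at 260.5, then the transcription factor foxo (186.4), the membrane adaptor melt (175.9) and the receptor InR (130.8). The foxo peak had no promoter summit in the replicate 1 list, and InR ranked 1320 in replicate 1 but 4161 in replicate 2. Pi3K92E, the catalytic PI3 kinase subunit (102.6 in the pooled list), and Pdk1 (74.83) were below the threshold in the pooled list, although Pi3K92E ranked 2249 in replicate 1, within the 3535 highest peaks of that list, and 4576 in replicate 2, and chico, the receptor substrate, had no pooled summit.

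The amino acid branch, which brings TORC1 to the lysosome through the Rag GTPases, had 3 of 16 genes called (18.8%), a share near that of all genes. Lamtor3, a subunit of the Ragulator that anchors the Rag GTPases, had a signal of 790.5 (rank 269) at a promoter shared with fws. Sec13 (126.2) and Wdr24 (119), subunits of GATOR2, had weak peaks, shared with ATPsynCF6 and IntS11, and Wdr24 ranked 3839 and 3627 in the replicate 1 and 2 lists. Neither Rag GTPase gene (RagA-B and RagC-D) had a pooled summit, and the GATOR1 genes Nprl3 (34.41) and Iml1 (42.22) had summits of low rank in the pooled list, while Nprl2 had none.

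Of 8 genes of the energy and stress branch, 3 were called (37.5%, against 16.8% of all protein-coding genes). Sesn, the Sestrin gene, had a signal of 501.7 with a TSS of CG46429 at the same distance from the summit (216 bp), SNF4Agamma, a subunit of AMP kinase, had 324.1, and chrb, an inhibitor of TOR under stress, had 165.7. The catalytic subunit gene AMPKalpha had no promoter summit in the pooled list or in either replicate list. Among 3 complex partners and Rheb regulators, Tctp alone was called (33.3%, against the same 16.8%), with a signal of 114.6 near the lowest of the set (109.8), ranks of 3574 and 4412 in the replicate 1 and 2 lists, and SdhC as a neighbour. The TORC2 subunit Sin1 had 50.62 in the pooled list, and PRAS40, a TORC1 inhibitor, had no pooled summit.

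Among the outputs of TOR, 6 of 10 genes were called (60%, against 16.8% of all protein-coding genes). REPTOR, a transcription factor held back by TORC1, had a signal of 361.1 (ranks 929 and 697 in replicates 1 and 2). Its partner REPTOR-BP was counted through a peak of 546.5 whose summit lay 500 bp from its TSS, the outer limit of the rule, and 71 bp from that of Rsf1. The replicate 2 list had no summit within the limit, and REPTOR-BP was not counted when a summit counted for the closest gene alone. Tif-IA, a factor of RNA polymerase I, had 454.4, Mitf, a regulator of lysosome genes on chromosome 4, had 256.6, and the autophagy gene Atg13 had 215.2. RpS6, the ribosomal substrate of S6k, had 152.9, with TSSs of CR33222 and snoRNA:Or-aca2 also within 500 bp of the summit. For eIF4E1, the cap-binding protein that Thor holds back, the pooled signal was 67.56, and for Myc it was 68.79, both below the threshold. Atg1, the kinase partner of Atg13, and unk, a zinc finger protein downstream of TOR, had no pooled summit.

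**Figure D5:**
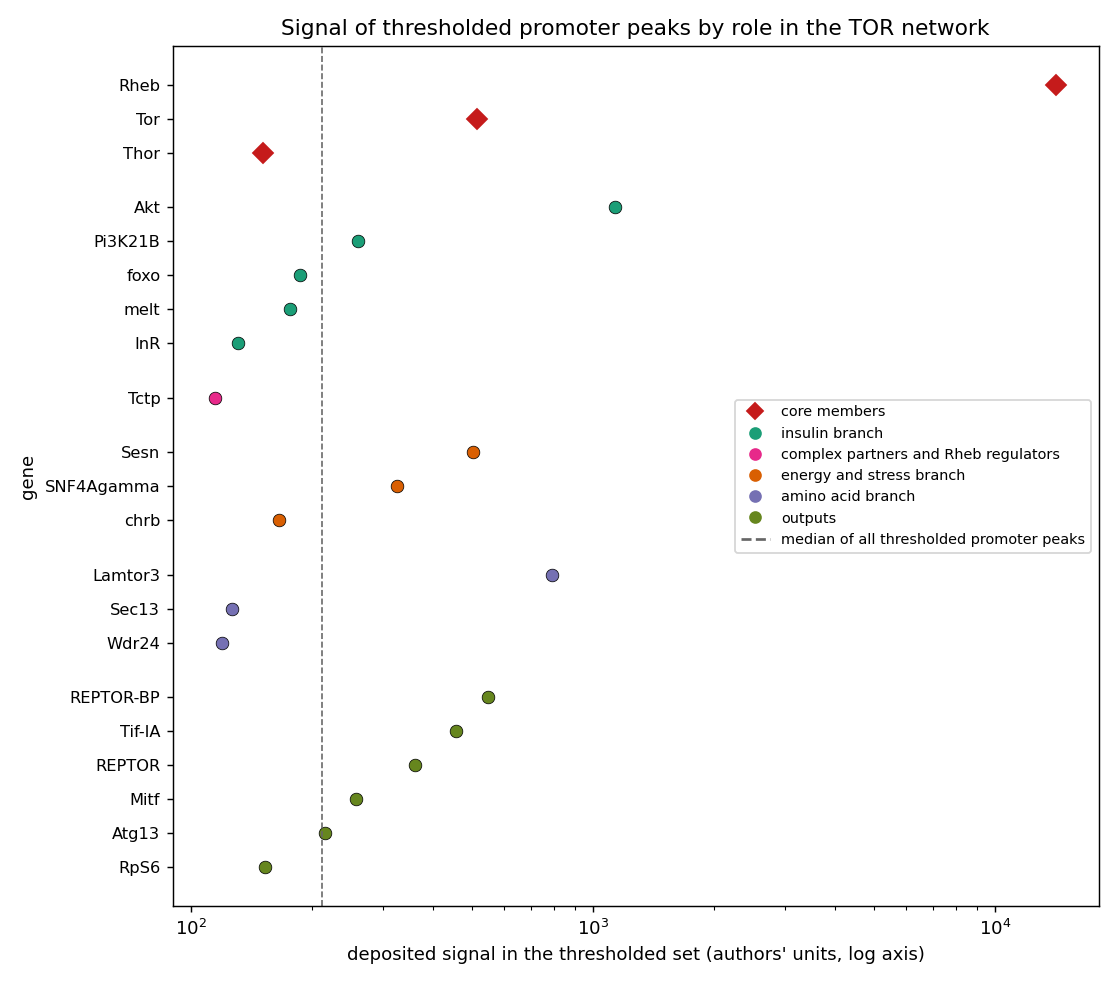
Deposited signal (log axis, authors' units) of the 3 core members (diamonds) and 18 of the wider network genes (circles, coloured by branch) with a thresholded promoter summit, with a dashed line at 211.6, the median of all thresholded promoter peaks. Rheb stands apart at 14187.2, the next is Akt at 1134.8, and 8 of the 18 wider genes lie left of the line.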

How the data were processed

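All lists were on dm6. Per the accompanying file descriptions, the authors called peaks with a control for each replicate and for both pooled, and derived an optimal set by IDR, a test of reproducibility between replicates. No source used here names the aligner, the caller or the threshold. Column 7 of each list holds the authors' signal value, as deposited. The deposited −log10 q-value column reached a ceiling of 3.66 shared by 2303 pooled peaks and served only for an alternative ranking. Other values deposited by the authors, the summit offsets, gave summits as start plus offset. Offsets outside their interval (1 peak in replicate 1, 4 in replicate 2) were replaced by the midpoint.

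Gene models of Ensembl release 115 without transposable elements supplied the TSSs, and RefSeq gave the same TSSs for the 9 genes. Of several summits at a gene, the one with the highest signal was used. Signal ranks ran from 1 in each list. Python 3.11.15 and Matplotlib 3.10.9 were used, and the search for promoter summits was checked on simulated peaks.

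The members, the 46 wider genes and the motifs were chosen with earlier results of these data known. Named were all members, genes that share their summits, every wider gene with a thresholded peak except 1 that is counted but not reported here, and the 3 promoter peaks next above and below Rheb; wider genes without a thresholded peak were picked by role after their values were seen. There was no test, since 1 group allows no comparison of conditions. Depth is unknown, so no interval for counting error was given.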

Additional observations from a re-analysis of the deposited data

How the results depend on the processing

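Of 72 alternative values, 55 stayed close to the main ones. Close meant within 1.5 times for counts, and within 1 SD of the 2 replicates for signals and ranks. The tally does not measure stability, because some values could not differ. A motif absent within 100 bp of the summit cannot appear within 50 bp, and CGATA, found at 3 of 3, cannot be lost at 250 bp. Rheb and Thor at 200 bp kept the same peak, and so the same signal. Signals without a replicate set pooled values against replicate values on unlike scales. One of the 10 settings for the counts, the highest peaks of the pooled list, is the thresholded set itself, so its 3 values could not differ. The member count was 2 or 3 in the other 9: Tor was not counted at 200 bp or with the nearest gene only, and Thor was not among the 1767 or the 500 highest peaks. The wider network count was 13 at 200 bp and 20 at 1000 bp, where the share of all protein-coding genes was 12.3 and 19.2%, but 10 with the 1767 highest thresholded peaks and 4 with the 500 highest, where the share of all protein-coding genes was 9.65 and 3.26% because fewer peaks were used. With one replicate's list alone it ranged from 15 to 20, the member count was 3 both times, and the share of all genes was 16.4 to 16.8%. Signals without a replicate ranged from 3366.5 to 10823.9 at Rheb, from 128.1 to 389.2 at Tor and from 56.58 to 92.55 at Thor, on the lists' own scales, which differ from that of the pooled list. Ranked by q-value, Rheb and Tor in both replicate lists and Thor in replicate 1 shared rank 1 with all peaks at the ceiling, which does not separate them. With motif windows of 250 bp on each side of the summit, ATCGAT was found at 1 and GAGAG at 1 of the 3 thresholded members, and with windows of 50 bp CGATA and TATAAA were found at 0. At 200 bp the Tor signal had no value, and at a reciprocal overlap of 50% the Tor peak of replicate 1 had no match. No paired analysis was possible because there was 1 group. Depth limits could not be given.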
